A study of Mus musculus with 24 samples.

Results

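The genes of oxidative phosphorylation were examined in mouse fat over the circadian day, in the presence and absence of a working central clock. They were chosen by symbol: every gene beginning with Ndufa, Ndufb, Ndufc, Ndufs, Ndufv, Uqcr, Cox4, Cox5, Cox6, Cox7, Cox8 or Atp5, together with Sdha, Sdhb, Sdhc and Sdhd. The rule found 89 of the 22180 genes that the array's annotation names through probe sets with 1 symbol, and each gene was read from its brightest such probe set. Of the 89, 82 had a mean signal above the 30th percentile of all genes and were tested. These 82 were 31 subunits of complex I, 4 of complex II, 7 of complex III, 17 of complex IV, 17 of the ATP synthase and 6 complex I assembly factors (the Ndufaf genes, which the prefixes also caught). Ndufa4 and Ndufa4l2 were counted with complex IV, where the NDUFA4 protein is now placed.

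The mice fell into 8 groups of 3, 1 array each, from 2 genotypes and 4 circadian times. Mutant mice (MUT) were Syt10-Cre/Cre x Bmal1-flox/- and lacked a working clock in the brain's circadian pacemaker, the suprachiasmatic nucleus (SCN). Control mice (CON) were Syt10-Cre/Cre x Bmal1-+/-, so both genotypes carried the Syt10-Cre allele in homozygous form and a null allele of Bmal1, the gene of a core clock transcription factor. The animals spent 2 weeks in alternating light and darkness and were then kept in constant darkness. They were killed by cervical dislocation on the second day at CT1, CT7, CT13 or CT19, where CT (circadian time) counts hours of the internal day. Without a working central clock, as in MUT, CT is a label of the sampling time. The labels place CT1 at 27 h after lights off, and times are given here as labelled. Neither age nor sex was stated. The Cre is driven from Syt10, a gene used because of its expression in the SCN, and recombination elsewhere was not measured here. Sample titles and the protocol name eWAT, the abbreviation of epididymal white adipose tissue, whereas the source field names the mediobasal hypothalamus. The arrays matched the titles: 11 adipocyte markers (Adipoq, Plin1 and others) had a median signal of 12.45 (log2), at the 99.6th percentile of all genes, and 12 markers of hypothalamus and neurons sat at the 39.3rd.

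In oxidative phosphorylation, complexes I and II pass electrons from NADH and succinate to ubiquinone, complex III hands them to cytochrome c, and complex IV gives them to oxygen. The protons pumped on the way drive the ATP synthase. Most subunits are encoded in the nucleus and a small core in mitochondrial DNA. In white adipocytes this machinery supplies ATP for lipid synthesis and breakdown, and it is richer in brown fat, where uncoupling turns it to heat. None of the 13 mitochondrially encoded subunits was read by a probe set with 1 symbol on this array, so all values below concern nuclear genes.

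The 82 tested genes sat high on the array, with complex medians from 9.27 (complex III) to 10.32 (complex II) on the log2 signal scale and 8.63 for the assembly factors. The brightest member of each complex was Atp5b, the catalytic beta subunit of the ATP synthase (13.27), Cox6a1 of complex IV (13.16), the iron-sulfur subunit gene Ndufs7 of complex I (12.44), Uqcrb of complex III (12.03) and Sdha, the flavoprotein of complex II (11.79). Among assembly factors it was Ndufaf3 (9.17). Signals of different genes also reflect their probes, so these are not ranked as transcript amounts. Below the level filter lay the testis isoforms Cox7b2 (5.04) and Cox8c (6.28), the pseudogenes Atp5c1-ps (5.92) and Uqcrh-ps1 (5.17), and Ndufaf5 (6.99), Ndufaf6 (7.14) and Ndufs5 (7.36). A further 9 symbols that fit the rule, Cox6c, Ndufb2, Ndufb4, Ndufb4b, Ndufb4c, Ndufs5-ps, Ndufs6, Ndufs6b and Uqcr10, were found only on probe sets shared with another symbol and were not analysed here.

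The sequences just upstream of 4 members are printed because these members lead the comparisons that follow: Ndufa7 the rhythm in controls, Ndufa11 and Cox7c the difference in rhythm, and Cox5b the difference in level. Each is the 150 bases before the RefSeq transcript start (GRCm38.p6), 5′ to 3′ on the gene's strand: Ndufa7 at chr17:33824422-33824571, plus strand, Ndufa11 at chr17:56717612-56717761, plus strand, Cox7c at chr13:86046796-86046945, minus strand, and Cox5b at chr1:36691337-36691486, plus strand. Capitals mark an E-box (CACGTG) in Ndufa7 from -72 to -67, the core of the NRF1 motif (CGCATGCG) in Ndufa11 from -59 to -52, and a nuclear receptor half-site (AGGTCA) in Cox5b from -145 to -140. No searched motif fell in the Cox7c stretch.
Ndufa7: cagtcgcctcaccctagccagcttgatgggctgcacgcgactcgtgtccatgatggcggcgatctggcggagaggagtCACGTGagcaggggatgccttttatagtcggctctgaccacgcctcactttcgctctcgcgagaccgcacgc
Ndufa11: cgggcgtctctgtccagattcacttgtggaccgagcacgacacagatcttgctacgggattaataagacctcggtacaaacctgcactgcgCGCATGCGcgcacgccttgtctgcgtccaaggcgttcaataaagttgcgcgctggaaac
Cox7c: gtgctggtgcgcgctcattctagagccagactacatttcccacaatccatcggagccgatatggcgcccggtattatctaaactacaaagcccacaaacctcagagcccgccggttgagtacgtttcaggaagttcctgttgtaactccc
Cox5b: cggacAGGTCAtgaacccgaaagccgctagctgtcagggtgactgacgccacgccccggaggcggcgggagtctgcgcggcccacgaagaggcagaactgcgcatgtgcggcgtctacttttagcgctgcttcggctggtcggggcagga

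RefSeq start sites were matched for 72 of the 89 members, giving 77 windows, and 5 motifs were looked for on both strands in the 250 bases upstream. The NRF1 core, named for a regulator of nuclear genes for mitochondria, was in 10.4% of the members' windows (8 of 77) and in 1.55% of all 32851 windows. The ETS motif CCGGAAG, bound by the GABP family, was in 18.2% (14 windows) and 6.91%. Motifs of the clock differed less in share: the E-box CACGTG was in 9.09% against 6.02%, and the D-box TTANGTAA in 2.6% against 2.06%. The half-site AGGTCA was in 11.7% against 14%. CACGTG, CGCATGCG and AGGTCA share no overlapping match in the stretches printed. A match is a run of letters and was not tested as a binding site.

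In control mice, transcripts of the respiratory chain tended to be high early in the subjective day and low just after its end. The mean was lowest at CT13 in 48 of the 82 genes (58.5%), against 26.2% of all 15526 genes tested, and highest at CT1 in 42 (51.2%), against 30.1%. The count for CT1 was 36 after quantile normalization (43.9%, all genes 26.7%) and 27 once the dependence on signal level was taken out (32.9%, all genes 23.6%), whereas that for CT13 was 45 and 44. All 4 complex II genes, 5 of 7 of complex III, 11 of 17 of the ATP synthase, 10 of 17 of complex IV and 16 of 31 of complex I were lowest at CT13, whereas 4 of the 6 assembly factors were lowest at CT7 (all genes 30.5%). These counts describe group means and carry no test. In complex II the median deviation from the gene's own mean was lowest in CON at CT13 (-0.111, log2) among the 8 groups. In complex III it was -0.091 there and lower still in MUT at CT19 (-0.144).

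**Figure D1:**
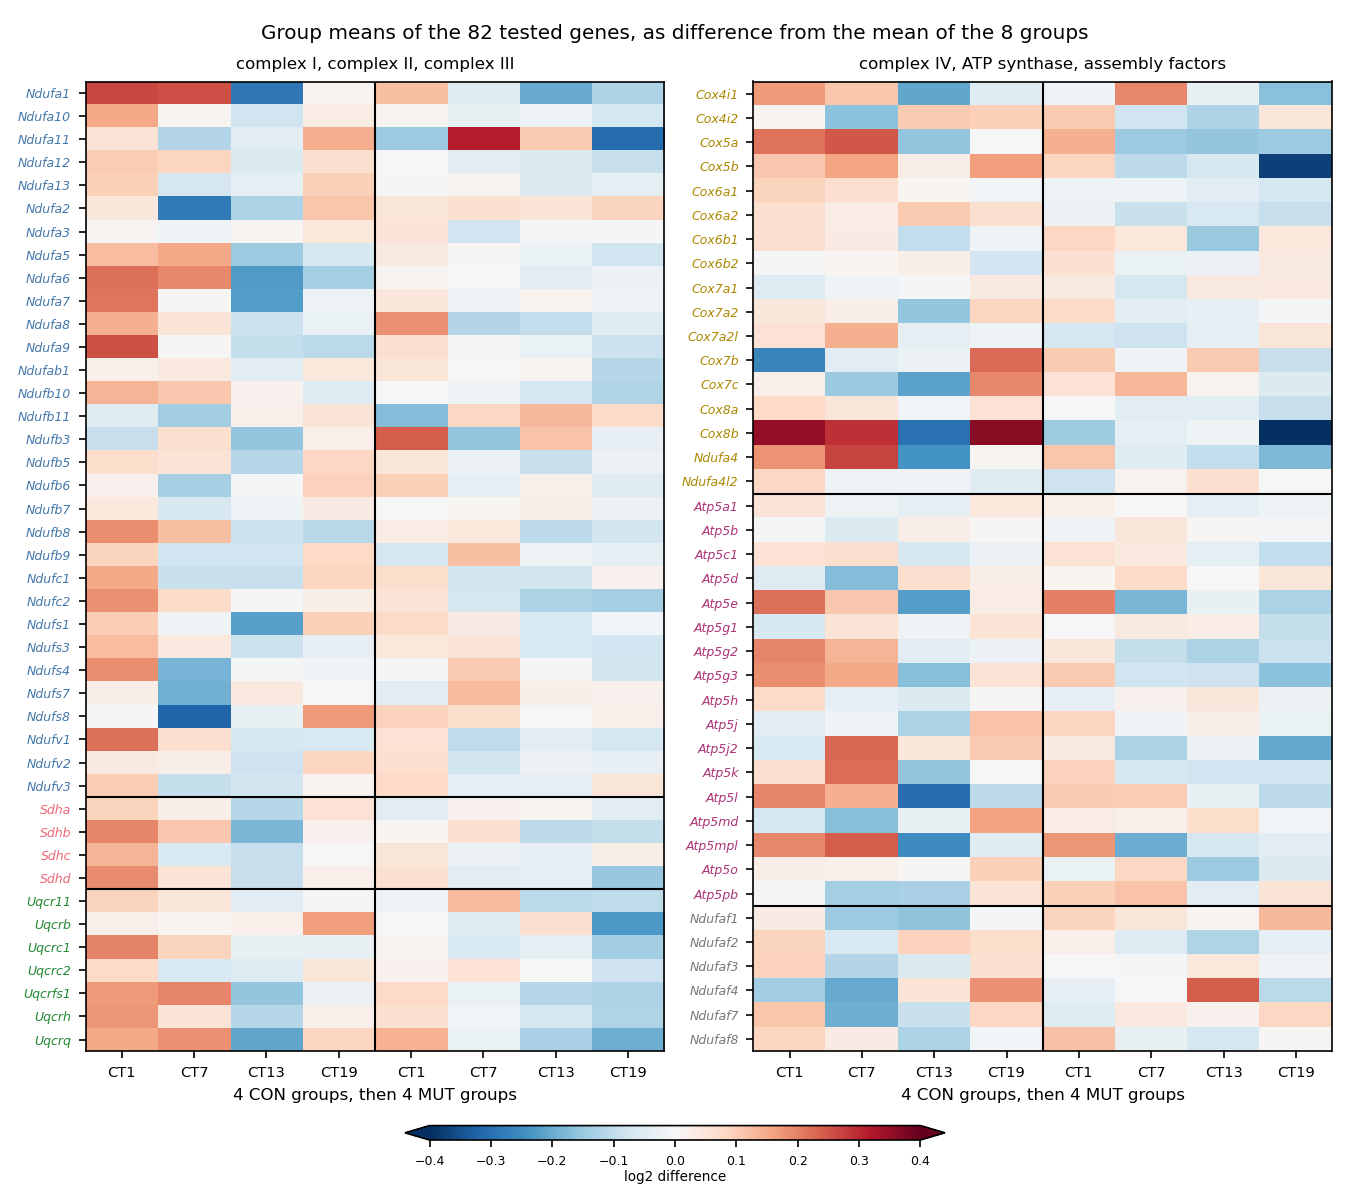
Heat map of the 82 tested genes (rows, coloured by complex) over the 8 groups (columns: CON at CT1, CT7, CT13 and CT19, then MUT in the same order). Colour gives the group mean of 3 arrays minus the mean of the 8 groups, in log2 units from -0.4 to 0.4; in 48 genes the CON mean was lowest at CT13, and Cox5b, Cox8b and Ndufa11 have the darkest blue cells at CT19 of MUT.

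Array by array, the median deviation of the 82 genes from their own means was 0.046, 0.086 and 0.090 (log2) at CT1 in controls, and -0.100, 0.007 and -0.145 at CT13. The CT1 and CT13 arrays of the controls did not overlap, although the second CT13 array stayed near 0. In mutants the same medians were -0.004, -0.007 and 0.135 at CT1 and 0.013, -0.139 and 0.039 at CT13, which overlap. Over all genes, group means of the median deviation lay between -0.012 and 0.014. In bulk tissue, fewer cells of a type and less RNA per cell cannot be told apart.

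Rhythms were tested by fitting a 24-h cosine to the 4 time points in a limma model over all 24 arrays, with size as the log2 difference between peak and trough. A gene was called at a Benjamini-Hochberg adjusted p under 0.05 over all 15526 genes. In controls 19 of the 82 genes were called (23.2%), against 17.1% of all genes (2650), so the share stood not far above the background. The median size of the 82 genes was 0.23, and that of all genes 0.18. Of the 19, 13 peaked between CT0 and CT6 (68.4%, against 38.5% of all called genes) and 6 between CT12 and CT24 (31.6%, against 54.9%). As shares of the genes tested, these were 15.9% of members against 6.56% of all genes, and 7.32% against 9.38%. Called genes were spread over all complexes: 6 of 31 in complex I, 1 of 4 in II, 2 of 7 in III, 3 of 17 in IV, 5 of 17 in the ATP synthase and 2 of 6 assembly factors.

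Ndufa7, an accessory subunit of complex I, had the smallest p. Its signal in controls was 9.60, 9.50 and 9.58 at CT1, 9.48, 9.26 and 9.32 at CT7, 8.97, 9.26 and 9.14 at CT13, and 9.26, 9.30 and 9.43 at CT19. Every CT1 array lay above all others, and the lowest array was at CT13. The fitted size was 0.44 ± 0.07 (SE, 1.35-fold, n = 12 arrays), with the peak at CT1.21 and a limma adjusted p of 0.00141. In mutants the 12 arrays stayed between 9.24 and 9.43, and the fitted size was 0.03 ± 0.07 (limma adjusted p = 0.963).

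Ndufa1, a small membrane subunit of complex I encoded on the X chromosome, had the largest fitted size of its complex. It read 8.69, 8.60 and 8.95 at CT1 and 8.91, 8.65 and 8.66 at CT7, then 8.11, 8.29 and 8.18 at CT13 and 8.31, 8.52 and 8.64 at CT19. All 3 CT13 arrays lay below every array of the other times. The size was 0.61 ± 0.11 (1.52-fold), peaking at CT2.61 (limma adjusted p = 0.0023). In mutants it was 0.33 ± 0.11 with a peak at CT1.86 (limma adjusted p = 0.246), and the difference in rhythm was not called (limma adjusted p = 0.533).

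Fewer called genes peaked between CT12 and CT24, 6 of the 82 (7.32%), below the 9.38% of all genes. Ndufa2, an accessory complex I subunit with a thioredoxin-like fold, read 9.31, 9.30 and 9.32 at CT1, 9.05, 8.95 and 8.94 at CT7, 9.00, 9.24 and 9.19 at CT13, and 9.28, 9.42 and 9.43 at CT19. The CT7 and CT13 arrays all lay below those of CT1 and CT19. Its size was 0.43 ± 0.07 and its peak CT20.5 (limma adjusted p = 0.00169). Cox7c of complex IV peaked at CT21.3 (0.41 ± 0.08, limma adjusted p = 0.00609), the assembly factor Ndufaf7 at CT21.4 (0.34 ± 0.07) and Ndufaf4 at CT17.2 (0.43 ± 0.10). The ATP synthase-associated small protein gene Atp5md peaked at CT18.5 (0.33 ± 0.08).

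Ndufs1, the large iron-sulfur subunit of complex I, peaked at CT23.7 (0.33 ± 0.10, limma adjusted p = 0.0463), nearer to Ndufa7 than to these genes. It read 9.38, 9.46 and 9.55 at CT1 and 9.00, 9.36 and 9.07 at CT13, its highest and lowest times by mean. The other called genes peaked within a span of less than 3 h, from Uqcrh at CT1.42 to Atp5k at CT4.05. Peaks fitted to 4 times are imprecise, with an SE of 0.997 h for Atp5e and 1.11 h for Atp5mpl. Neither the order within this span nor the place of Ndufs1 is therefore settled. Ndufa4 (0.49 ± 0.10, CT3.17, limma adjusted p = 0.00542) read 10.99, 10.83 and 11.05 at CT1 and 10.47, 10.78 and 10.38 at CT13, without overlap. The Rieske protein gene Uqcrfs1 of complex III (0.39 ± 0.10, CT3.24), the iron-sulfur subunit Sdhb of complex II (0.39 ± 0.10, CT1.89) and Cox4i1 of complex IV (0.42 ± 0.11, CT2.47) belonged to the same span. So did the complex I subunits Ndufa6 (0.55 ± 0.14, CT3.41) and Ndufa5 (0.34 ± 0.09, CT3.6). From the ATP synthase came Atp5e, the epsilon subunit (0.45 ± 0.12, CT1.67), Atp5k, Atp5g2 (0.29 ± 0.08, CT3.24) and Atp5mpl (0.53 ± 0.15, CT3.21, limma adjusted p = 0.0499). The second probe set of Atp5e, of nearly the same brightness (8.96 against 9.02), gave a size of 0.04 (limma adjusted p = 0.932).

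**Figure D2:**
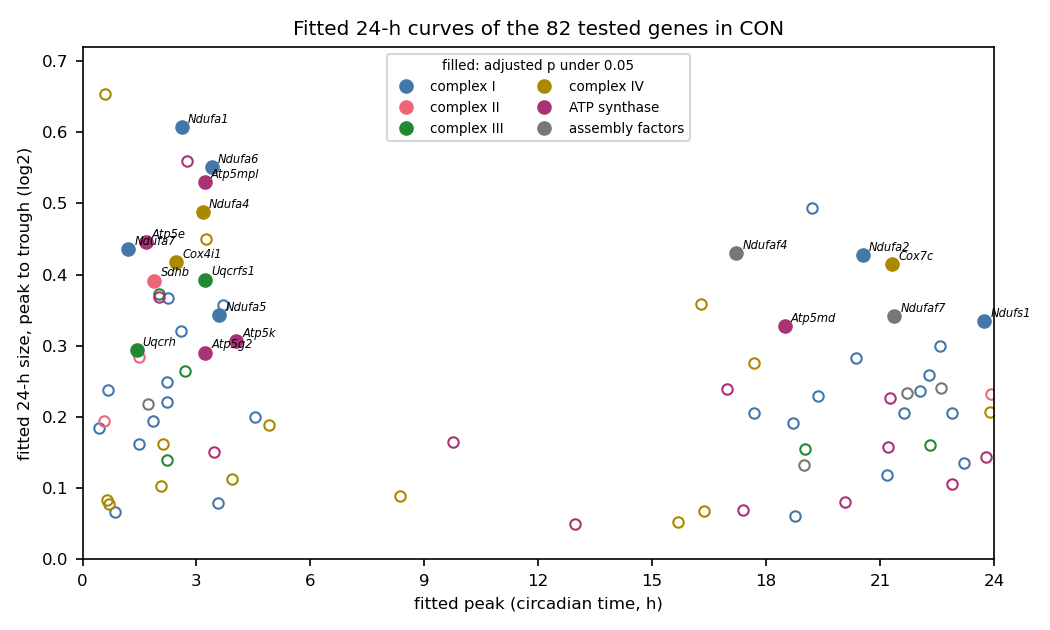
Fitted peak (circadian time, h) against fitted 24-h size (log2, peak to trough) of the 82 tested genes in CON, 1 point per gene, coloured by complex and filled where the adjusted p was under 0.05. Of the 19 filled points 13 lie between CT0 and CT6 and 6 between CT12 and CT24, and 2 of the 82 genes fall between CT6 and CT12.

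The fitted peaks of all 82 genes, called or not, left the second part of the subjective day nearly empty: 42 lay in the 6 h after CT0, 2 in those after CT6, 9 in those after CT12 and 29 in those after CT18. Over all genes the shares were 28.1%, 19.8%, 24.9% and 27.2%. The members with the largest fitted sizes that were not called were Cox8b (0.65 ± 0.32) and Atp5l, the g subunit of the ATP synthase (0.56 ± 0.17, limma adjusted p = 0.0649). At the other end were Atp5g1 (0.05 ± 0.10), Cox6a2 (0.05 ± 0.09), Ndufa3 (0.06 ± 0.09), Ndufaf2 (0.13 ± 0.11), Uqcr11 (0.14 ± 0.10) and Sdha (0.19 ± 0.07, limma adjusted p = 0.106), each with the smallest size of its complex.

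The number of these calls changed with the arrays that were kept. The arrays of CON at CT7 replicates 2 and 3 and at CT13 replicate 1 had the narrowest spread of values (SD 1.583 to 1.591 against up to 1.671). CON CT13 replicate 2 came close behind (1.598) and was kept, so no clear gap set the 3 apart. Without those 3 arrays, a choice made after seeing the data, 2 of the 82 genes were called, Ndufa1 and Ndufa7, and 6.51% of all genes. Leaving them out keeps replicate 1 alone in CON at CT7. A call lost without them, here or below, therefore cannot be told apart from the loss of replicates. By group means, 48 genes were still lowest at CT13 (28.4% of all genes) and 34 highest at CT1 (22.2%) without them. Leaving out single arrays lowered the count of 19 to 8 without CON CT13 replicate 3, to 9 without CON CT13 replicate 1 or CON CT1 replicate 3, to 11 without CON CT1 replicate 2, and to 12 without CON CT7 replicate 1 or 3. The count rose to 26 without CON CT13 replicate 2. Ndufa7, Ndufa1, Ndufa2, Ndufa4, Cox7c and Ndufaf7 were called in each of the 24 omissions. The call was lost in 18 of them for Atp5mpl, in 17 for Ndufs1, in 13 for Atp5g2 and in 11 for Uqcrh. Markers of mesothelium, the lining of the fat pad, also cycled in controls: 8 of 9 were called, and the median deviation of the 9 was -0.85 to -0.78 at CT7 and 0.10 to 0.40 at CT19 (log2). With that median as a covariate, 10 of the 82 genes were called, 8 of them among the 19, and 9.51% of all genes. The covariate itself differed between the groups. A call lost with it, here or below, therefore cannot be told apart from a loss of precision. Markers of other cell types were called in controls as well, beside 17.1% of all genes. Of 7 markers of fibroblasts and preadipocytes 5 were called, with medians of -0.41 to -0.32 at CT7 and 0.09 to 0.27 at CT19. Of 11 macrophage markers 4 were called, with medians of -0.29 to -0.25 at CT7 and -0.03 to 0.37 at CT13, where the members were low. Of 8 endothelial markers 3 were called, with medians of 0.02 to 0.08 at CT1 and -0.17 to -0.04 at CT13. Of 11 adipocyte markers 3 were called, and their median stayed between -0.11 and 0.03 in controls. The part of these cell types in the result was not tested.

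Mutant mice showed smaller fitted rhythms. The size was smaller in MUT than in CON in 65 of 82 genes (79.3%), against 66.4% of all genes, and the median size was 0.14 (all genes 0.13). After quantile normalization the share was 67.1% against 66.4%, so it stood out from other genes only under some scalings. In MUT 1 of 82 genes was called (1.22%), against 0.348% of all genes (54), and 7 had an unadjusted p under 0.05 (14.6% of all genes). The highest mean was at CT1 in 50 genes (61%, against 30.1% of all genes) and the lowest at CT19 in 37 (45.1%, against 27.3%). After quantile normalization these counts were 41 (50%, all genes 25.6%) and 49 (59.8%, all genes 27.9%). With the level trend removed they were 39 (47.6%, all genes 23.6%) and 53 (64.6%, all genes 29.2%). The median deviation of the 82 genes at CT1 of MUT was high in replicate 3 alone (0.135, against -0.004 and -0.007). Complex III had the largest share lowest at CT19, 6 of 7 genes. None of these counts was tested, and both genotypes came from the same fit.

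The gene called in MUT was Ndufa11, a membrane subunit of complex I. It read 10.00, 10.08 and 10.21 at CT1, 10.91, 10.43 and 10.34 at CT7, 10.41, 10.22 and 10.42 at CT13, and 9.85, 9.92 and 10.04 at CT19. The CT7 arrays of MUT lay above those of CON (10.15, 10.11 and 10.14), and the CT19 arrays of MUT lay below those of CON (10.68, 10.31 and 10.19). The size in MUT was 0.67 ± 0.13 with a peak at CT8.48 (limma adjusted p = 0.0465), and in CON it was 0.28 ± 0.13 with a peak at CT20.4 (limma adjusted p = 0.257). The call in MUT was lost in 13 of the 24 omissions of 1 array.

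The difference in rhythm itself was called for 2 of 82 genes (2.44%), against 1.44% of all genes (223). For Ndufa11 the difference vector had a size of 0.96 ± 0.18 (limma adjusted p = 0.0212). For Cox7c it was 0.56 ± 0.12 (limma adjusted p = 0.0414). Cox7c read 7.59, 7.54 and 7.62 at CT1, 7.60, 7.45 and 7.21 at CT7, 7.34, 7.43 and 7.28 at CT13, and 7.89, 7.66 and 7.72 at CT19 in controls. In mutants it read 7.72, 7.50 and 7.65, then 7.75, 7.66 and 7.69, then 7.55, 7.55 and 7.63, and 7.51, 7.61 and 7.41 at CT19. At CT7 and CT13 every mutant array was above every control array, and at CT19 every mutant array was below, as the panels of single genes show.

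**Figure D3:**
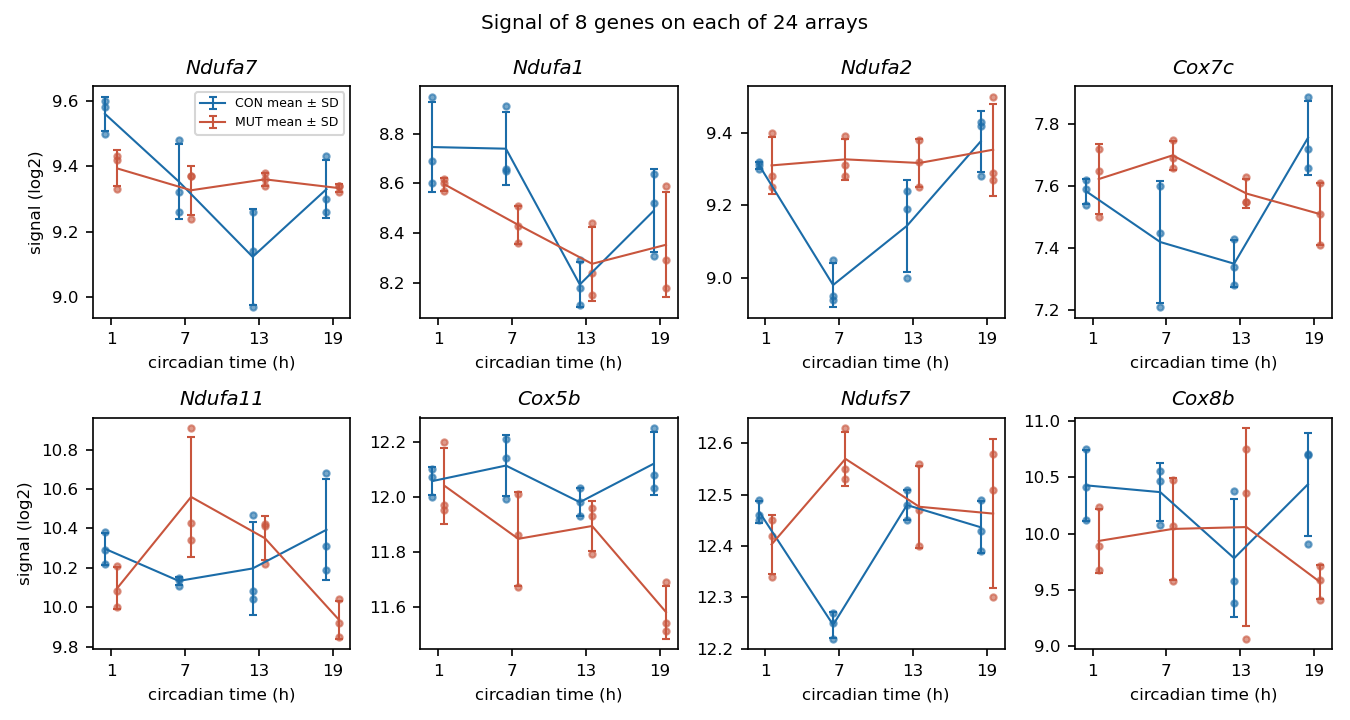
Signal (log2, vertical axis, its range set per panel) of 8 genes against circadian time (h), with 1 point per array, lines through the means of 3 arrays and bars of 1 SD, CON in blue and MUT in red. Ndufa7, Ndufa1 and Ndufa2 vary over the day in CON, Ndufa11 and Cox7c cross between genotypes, Cox5b is lower in MUT at CT19 (11.58 against 12.12), Ndufs7 is higher in MUT at CT7, and Cox8b scatters between 9.07 and 10.75.

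The Ndufa11 result rested on 1 of its probe sets. The brighter one, 17547939 (mean 10.25), gave the values above, whereas 17338872 (mean 8.50) gave a difference of 0.03 ± 0.13 (limma adjusted p = 0.986), and they correlated at r = 0.00 over the 24 arrays. Without MUT CT19 replicate 1 neither gene was called. The Ndufa11 difference kept its call in every other omission of 1 array, whereas that of Cox7c was lost in 13 of the 24 and with an F test over the 4 times. Without the 3 arrays of narrow spread neither was called.

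Averaged over the 4 times, 6 of 82 genes differed between genotypes (7.32%), below the 21.7% of all genes (3365). In MUT 1 was higher and 5 were lower, against 12.3% and 9.42% of all genes. Cox5b, a zinc-binding subunit of complex IV, was lower in MUT (log2 MUT minus CON of -0.23 ± 0.04, limma adjusted p = 0.00354, n = 12 arrays each). The other lower genes were Ndufc2 of complex I (-0.14 ± 0.04, limma adjusted p = 0.00982), the ring subunit Atp5g2 (-0.13 ± 0.04), Cox8a (-0.09 ± 0.03) and the muscle-type Cox6a2 (-0.13 ± 0.04, limma adjusted p = 0.0383). Ndufa2 was higher (0.13 ± 0.04, limma adjusted p = 0.0211). The call was lost in 13 of the 24 omissions of 1 array for Cox6a2 and in 9 for Cox8a. Both probe sets of Atp5g2 gave this difference (-0.13 in each), and they correlated at r = 0.97.

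The direction of the daily mean for the whole set depended on scaling. The fitted difference was below 0 in 52 of 82 genes (63.4%, all genes 48.7%), and in all 7 of complex III. It was below 0 in 63 after quantile normalization (76.8%, all genes 49.7%) but in 33 (40.2%, all genes 33.2%) when arrays were shifted to a common median, which moved the median of all genes to 0.05. Under that shift 7 members were called higher and 1 lower, among all genes 3812 and 537, and of the 6 genes above Cox5b and Ndufa2 were still called. After quantile normalization Cox5b, Ndufc2 and Atp5g2 were still called. The call of Ndufa2 was lost there and with the level trend removed, and in 4 of 11 alternatives besides the omissions of 1 array. Cox5b was the 1 member called without the 3 narrow arrays (1.91% of all genes), and no member was called with the mesothelium median as a covariate (1.26%). Of the 9 mesothelium markers, 4 were called higher in MUT. Without MUT CT7 replicate 2 the count of 6 was 3.

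At CT19 the set lay lower in mutants. The difference was below 0 in 63 of 82 genes (76.8%), against 50.1% of all genes, with a median of -0.10 (all genes -0.0003). All 7 complex III genes were below 0 (median -0.13), as were 14 of 17 of the ATP synthase, 24 of 31 of complex I, 12 of 17 of complex IV and 3 of 4 of complex II. The count was 69 after quantile normalization (84.1%, all genes 49.8%), 54 (65.9%, all genes 38.3%) with arrays shifted to a common median, 71 with the trend on signal level removed (86.6%, all genes 50%), and 63 without the narrow arrays. By array, the median deviation of complex III was -0.163 to -0.122 in MUT and -0.058 to 0.138 in CON, without overlap. The median over the 82 genes overlapped, from -0.084 to -0.005 in MUT and from -0.052 to 0.126 in CON. The median of the 8 endothelial markers was 0.09 to 0.15 in MUT and -0.18 to 0.04 in CON at this time, and its part in the result was not tested.

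Gene by gene, 1 of 82 was called at CT19 (1.22%), against 2.74% of all genes (425), or 0.812% for lower ones alone. Cox5b read 12.03, 12.08 and 12.25 in CON and 11.54, 11.69 and 11.51 in MUT, so every mutant array lay below every control array. The difference was -0.54 ± 0.09 (limma adjusted p = 0.00234), or 1.45-fold lower. It was called in all 24 omissions, and lost when probe sets were averaged. The other probe set of Cox5b was dim (mean 6.39, below the level filter), correlated at r = 0.24 with the one used and gave -0.002 (limma adjusted p = 0.994). In 15 of 82 genes (18.3%) the arrays of the genotypes did not overlap at CT19, below the 27.3% of all genes.

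Cox8b, the complex IV isoform of brown fat and muscle, had the largest fitted difference of any member at CT1, at CT19 and over the day. It was 9.91, 10.71 and 10.70 in CON at CT19 and 9.41, 9.59 and 9.71 in MUT, without overlap, yet the difference of -0.87 ± 0.32 was not called (limma adjusted p = 0.117). Within groups it spread as widely: MUT at CT13 read 10.36, 9.07 and 10.75. Of 4 tested brown fat markers, Cidea (-0.27) and Ucp1 (-0.10) were called lower in MUT over the day. Both lay near the level filter, at the 38.9th and 33.6th percentile. Dio2 (-0.12) and Ppargc1a (-0.05) were not called. The median deviation of the 4 was 0.03 to 0.06 in CON and -0.23 to -0.11 in MUT at CT19 (log2). At CT13 it overlapped, from -0.12 to 0.10 in CON and -0.32 to 0.35 in MUT. Of 5 tested skeletal muscle markers, Mb (-0.15) and Ckm (-0.17) were also called lower over the day, where 9.42% of all genes were. Tnnt3 (-0.04) and Actn3 (-0.08) were not called, nor was Acta1, which went the other way (0.22). The median of the 5 at CT19 was -0.02 to 0.18 in CON and -0.10 to 0.02 in MUT. The part of either list in the values of Cox8b and Cox6a2 was not tested.

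**Figure D4:**
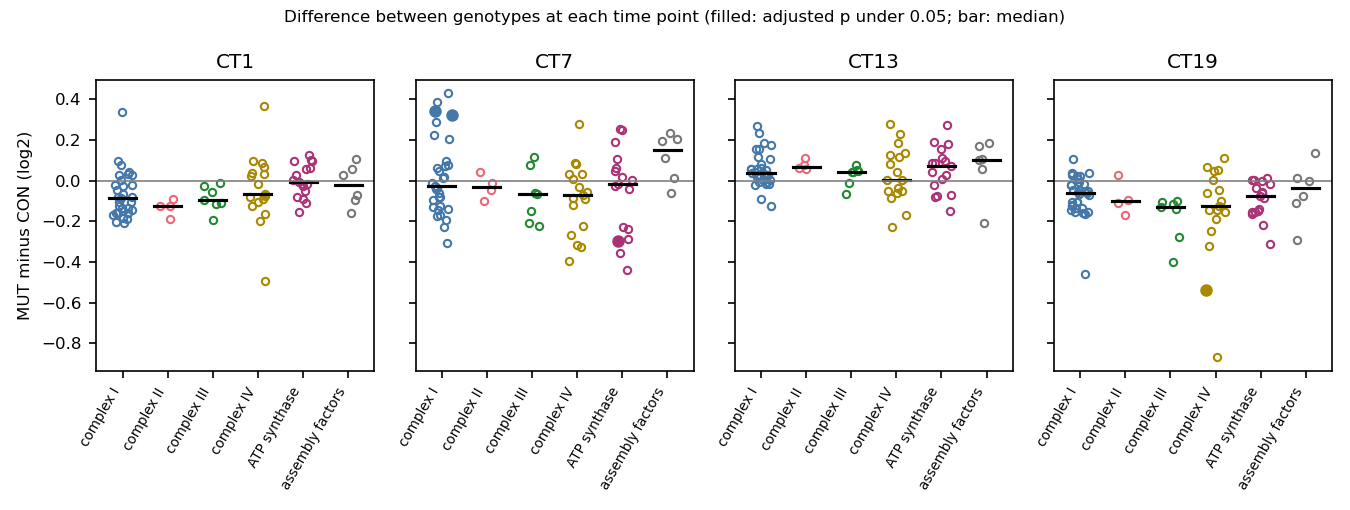
Difference between genotypes (log2 MUT minus CON, vertical axis) of each of the 82 tested genes at CT1, CT7, CT13 and CT19 (panels), grouped by complex, with black bars for the median and filled points where the adjusted p was under 0.05. At CT19 all 7 complex III genes lie below 0 and the 1 filled point is Cox5b; at CT13 all 4 complex II genes lie above 0.

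At CT7, 3 of 82 genes were called (3.66%), against 4.05% of all genes (629). In MUT 2 were higher and 1 was lower, beside 2.98% and 1.08% of all genes. Ndufs7, which carries the last iron-sulfur cluster of complex I, read 12.25, 12.22 and 12.27 in CON and 12.55, 12.53 and 12.63 in MUT. The CT7 arrays were the 3 lowest of its 12 control arrays, all below those of MUT, with a difference of 0.32 ± 0.07 (limma adjusted p = 0.00866). Ndufa2 was higher by 0.34 ± 0.07 (limma adjusted p = 0.012), with 9.05, 8.95 and 8.94 in CON and 9.39, 9.28 and 9.31 in MUT. Atp5k, the e subunit of the ATP synthase dimer interface, was lower in MUT (-0.29 ± 0.08, limma adjusted p = 0.0477), with 11.32, 11.30 and 11.26 in CON and 10.96, 11.04 and 10.99 in MUT. This call was lost in 15 of the 24 omissions of 1 array and in 5 of the 12 other alternatives; that of Ndufa2 was lost in 1 omission and that of Ndufs7 in none.

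Arrays of the genotypes did not overlap at CT7 in 35 of 82 genes (42.7%), against 25.6% of all genes, in both directions. In the ATP synthase this held for 11 of 17. The control arrays at CT7 include 2 of the 3 of narrow spread. Leaving out the 3 keeps 1 control array at CT7, so that alternative cannot show whether the calls came from those arrays. Without CON CT7 replicate 3 alone the count of 3 was 1. With arrays shifted to a common median, 6 members were called, all higher in MUT, but so were 89.8% of all called genes (750 higher and 85 lower).

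At CT1 none of the 82 was called by limma (0.0451% of all genes, 7), and 4 had an unadjusted p under 0.05 (11.5% of all genes). With array weights 1 member, Ndufb3, was called. At CT13 none was called (0.322% of all genes, 50), and 5 had an unadjusted p under 0.05 (19.8%). The difference at CT13 was below 0 in 22 of 82 genes (26.8%), against 48.6% of all genes, so most members lay higher in MUT. That count was 36 (43.9%) after quantile normalization and 37 (45.1%) with the level trend removed, near the 50.6% and 49.5% of all genes. It was 11 (13.4%) with arrays shifted to a common median, where the share of all genes was 33.4%.

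Paired isoforms of 1 subunit were set beside each other within their own probe sets. Cox4i1 was called in CON (0.42 ± 0.11), a call lost in 8 of the 24 omissions of 1 array. The lung-type Cox4i2 had a size of 0.28 ± 0.11 (limma adjusted p = 0.191). For Cox6a1 and Cox6a2 the sizes were 0.11 ± 0.07 and 0.05 ± 0.09, and for Cox6b1 and the testis-type Cox6b2 they were 0.16 ± 0.10 and 0.09 ± 0.08, none called. Cox7a1 (0.07 ± 0.12), Cox7a2 (0.21 ± 0.07) and Cox7a2l, which joins supercomplexes (0.19 ± 0.09), were likewise not called. Ndufa4 was called in CON and its paralogue Ndufa4l2 (0.10 ± 0.09, limma adjusted p = 0.676) was not. Of the c-ring genes, Atp5g2 was called, while Atp5g3 (0.37 ± 0.11, limma adjusted p = 0.0673) had the larger size and Atp5g1 0.05 ± 0.10. Cox7b (0.36 ± 0.13, limma adjusted p = 0.108) was read from a probe set that correlated with its other at r = 0.11. Cox8a had a size of 0.08 ± 0.06. A call in 1 isoform and not in another was not tested as a difference between them.

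Members varied together across the 24 arrays more within some complexes than others. The median pairwise Pearson r was 0.65 in complex II (6 pairs), 0.58 in complex III (21), 0.35 in complex I (465), 0.24 in the ATP synthase (136), 0.22 among assembly factors (15) and 0.13 in complex IV (136). Over all 3321 pairs of members it was 0.29, and between members and all other genes 0.03. The points share the same libraries, groups and normalization, so these values are a description.

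Genes around the respiratory chain were read from lists. Among 37 tested assembly factors outside the prefixes, 12 were called rhythmic in CON (32.4%, against 17.1% of all genes), 0 in MUT and 1 for the difference. The leading ones were Uqcc2, needed for complex III assembly (0.77, CT18.5, limma adjusted p = 0.00285), the heme farnesyltransferase Cox10 (0.34, CT20), Tmem126a (0.69, CT18.5) and Pet100 (0.43, CT19.9). The difference was called for Uqcc2 (0.91, limma adjusted p = 0.0472). Over the day 6 of the 37 were called (16.2%, below the 21.7% of all genes), and all 6 were higher in MUT (all genes 12.3%), led by Cox16 (0.20), Tmem126a (0.27), Ttc19 (0.14) and Tmem126b (0.15). At CT7 Uqcc2 (0.69) and Tmem126a (0.56) were higher in MUT, and at CT13 Cox16 was (0.41).

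Of 15 regulators of mitochondrial biogenesis, 1 was called in CON (6.67%, below the 17.1% of all genes). It was the coactivator Ppargc1a (0.65 ± 0.18, CT3.24, limma adjusted p = 0.0438), whose fitted peak lay inside the span of the early subunits. The 4 sampled times place that peak only roughly. None of the 15 was called for rhythm in MUT, for the difference in rhythm, for the daily mean or at a single time. Of 13 enzymes of the tricarboxylic acid cycle, 2 were called in CON (15.4%, near the share of all genes), Suclg1 (0.38, CT1.92) and Dld (0.44, CT23.4). None of the 13 was called in the other comparisons. Of 4 further nuclear genes of oxidative phosphorylation outside the prefixes, Dmac2l was called higher in MUT over the day (0.24 ± 0.07, limma adjusted p = 0.0184). The others, cytochrome c among them, were not called in any comparison. Median sizes in CON were 0.27 for the assembly factors, 0.19 for the regulators and 0.21 for the cycle enzymes, beside 0.18 over all genes.

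The targeted gene was read in the same arrays as Arntl, the symbol of Bmal1. Its signal in CON was 8.95 ± 0.20, 8.07 ± 0.09, 8.36 ± 0.29 and 9.54 ± 0.09 (SD, n = 3) at CT1, CT7, CT13 and CT19, and in MUT 8.49 ± 0.27, 8.19 ± 0.24, 9.52 ± 0.06 and 9.15 ± 0.21. The deletion concerns the SCN and these arrays hold fat, so the values do not check the genotype. The mean of Arntl was highest at CT19 in CON and at CT13 in MUT. Equal CT therefore need not be equal clock phase in the fat of both genotypes. The arrays had medians from 7.80 to 7.94 over all probe sets. Their number, 3 per group, limits the precision of every value, and p-values measure the spread between single mice.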

How the data were processed

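Total RNA was hybridised to Affymetrix arrays, 1 per mouse. Per the labels the deposited values are log2 signals, which the authors obtained by RMA in Affymetrix Expression Console per the submitters' processing notes; RMA sets all arrays to a common distribution before probe sets are summarised, yet the deposited arrays still differed in SD (1.583 to 1.671). Of 34390 probe sets, 23521 had 1 symbol in the platform annotation, 1814 several and 9055 none. The brightest probe set per gene was kept, and genes above the 30th percentile of mean signal (7.416) were tested.

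A cell-means model over the 8 groups (limma 3.58.1, R 4.3.3; 16 residual degrees of freedom) gave 24-h cosine contrasts with 2 degrees of freedom and MUT minus CON differences, adjusted by Benjamini-Hochberg over 15526 genes. SEs come from this model. The script was tested on simulated data. Figures used Python 3.11 and matplotlib. Up to 12 members past the threshold, the extremes and the brightest gene of each complex, isoform sets, and up to 4 genes of each list per comparison are named. Members, lists and this rule were chosen with earlier results of these data known. Alternatives covered scaling, filter, probe sets, weights, variance prior, curve shape, title letters as a block and each array left out. The title letters were not used to pair the mice in the main model. Same-lettered arrays had a median correlation of deviations of -0.02 (-0.43 to 0.34), and others 0.005 (-0.38 to 0.45). These values cannot show that the letters mark no pairing.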

Additional observations from a re-analysis of the deposited data

Results flagged for a closer look

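The difference in 24-h rhythm between genotypes was called by limma for 2 genes. Ndufa11 had a difference vector of 0.956 (log2, limma adjusted p = 0.0212), with a fitted peak at CT8.48 in MUT and at CT20.4 in CON, and its other probe set gave 0.03. Cox7c had a difference vector of 0.56 (limma adjusted p = 0.0414), and its signal of 7.56 lay at the 33.6th percentile of all genes, near the level filter; this call was lost in 13 of the 24 omissions of 1 array. No explanation was tested for either.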

How the results depend on the processing

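Limits are the 3 arrays per group, the 4 times of 1 day and scaling. The called differences between genotypes over the day, at CT7 and at CT19 kept their sign in every alternative run for them; a rhythm size has no sign. The count of 19 in CON was 10 by an F test over the 4 times, 2 without the 3 narrow arrays, 10 with the mesothelium covariate, and 8 to 26 with 1 array left out. The count of 1 in MUT was 0 with a common median, the letters as a replicate block, no filter, averaged probe sets, the F test, MUT alone, the narrow arrays left out or the covariate, 3 with array weights, and 0 to 1 with 1 array left out. For the rhythm difference, 2 became 1 with no filter, the 60th percentile filter or averaged probe sets, 4 with array weights, 0 without the narrow arrays, and 0 to 3 with 1 array left out. The daily mean count of 6 was 1, 0 and 10 without the narrow arrays, with the covariate and with the level trend removed, and 3 to 9 with 1 array left out. At CT1, 0 became 1 with array weights. At CT7, 3 became 6 with quantile normalization, a common median or the 60th percentile filter, 14 with array weights, 7 on that time's arrays alone, 8 with the level trend removed, and 1 to 4 with 1 array left out. At CT19, 1 became 2 with quantile normalization, the 60th percentile filter or the level trend removed, 0 with averaged probe sets, 5 with array weights, and 1 to 2 with 1 array left out. With 1 array left out, the counts at CT1 and CT13 were 0. The replicate block gave 17 members in CON, 0 in MUT, 2 for the difference, 6 for the daily mean, and 0, 2, 0 and 1 at CT1, CT7, CT13 and CT19. The choices of narrow arrays, covariate and level trend were made after seeing the data. Without the narrow arrays CON at CT7 holds 1 array, so calls lost there cannot be told apart from the loss of replicates. The covariate itself differed between the groups, so calls lost with it cannot be told apart from a loss of precision. Ndufa1 and Ndufa7 kept their rhythm call in CON in every alternative run for them. Causes of these changes were not tested.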
